A study of Mus musculus with 20 samples.

Results

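The neurons described here are the cholinergic neurons of the postnatal mouse medial habenula, taken as 530 of the 1229 wells that passed quality limits on 4 plates of single cells, 2 from postnatal day 4 (P4) and 2 from postnatal day 7 (P7). Kept wells had 1000 or more counts, leaving aside spike-in and mitochondrial RNA, 500 or more detected genes, and a mitochondrial share of no more than 20%. It was called a member with a count of at least 2 of the 3 genes Chat, Slc5a7 and Slc18a3, fewer than 5 counts of Gpr151, fewer than 10 of Tac1 and fewer than 3 of Cck. Those 6 genes chose the members, so their values are given as a description and were not tested. The plates come from a study that profiled habenula cells from embryo to adult in the Brn3a-tauLacZ mouse line, in which a reporter sits at the locus of Pou4f1 (Brn3a), by CEL-Seq2, a plate method with 1 cell to a well and molecular identifiers (UMIs). All 4 plates carry the same tissue and line labels and differ only in age. The labels do not give genotype at the reporter locus, sex, sorting gate or whether plates of 1 age came from separate animals, so p-values measure only the spread between plates, which may be technical. 5 plates shared a sequencing run, without a statement of which ones, so age and sequencing run cannot be told apart.

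Cholinergic neurons make acetylcholine with choline acetyltransferase, load it into vesicles with the vesicular acetylcholine transporter and recover choline through a high-affinity transporter. In the habenula these cells lie in the ventral medial nucleus and send their axons through the fasciculus retroflexus to the interpeduncular nucleus, where they are known to release glutamate as well as acetylcholine. They are also known for unusually dense nicotinic receptors that hold the alpha3, beta4 and alpha5 subunits. A dorsal group of medial habenula neurons instead makes the peptide substance P from Tac1.

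The members numbered 139 of 287 kept wells on P4 plate 1, 193 of 322 on P4 plate 2, 110 of 326 on P7 plate 1 and 88 of 294 on P7 plate 2. They had median totals of 20958, 22078, 23375 and 19680 counts in that plate order, against 17118, 14646, 20463 and 15613 in the other kept wells, so the rule also selected deeper wells. Wells under the 3 upper limits with a count of 0, 1, 2 or 3 of the cholinergic genes had median totals of 6757, 8783, 15154 and 24616 counts. Summed over members, the plates held 3196630, 4517466, 2913849 and 1920878 counts, and all values below are CPM, the counts of a gene scaled to a fixed total for each sum, given in the same plate order. Of the 699 other kept wells, 585 were neurons with a count of Pou4f1, 212 had the cholinergic genes but at least 5 counts of Gpr151 and fewer than 10 of Tac1, and 87 were Tac1-high wells with at least 10 counts of Tac1 (11, 4, 34 and 38).

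The rule genes separated the wells as the rule requires. Slc5a7, the choline transporter, had a UMI in 97.7% of members, Slc18a3, the vesicular acetylcholine transporter, in 92.5% and Chat, choline acetyltransferase, in 80.6%, with medians of 7, 3 and 2 UMIs a cell and highest values of 32, 20 and 17. All 3 had a count in 375 members (70.8%). In members Chat was at 95.8, 102, 109 and 105 CPM, and in the other kept wells at 30.7, 41.9, 32.4 and 29.0 CPM. Slc18a3 lies inside the first part of the Chat gene on the same strand (Slc18a3, ENSMUSG00000100241, chromosome 14, 32462438 to 32464850, within Chat, ENSMUSG00000021919, 32408203 to 32465989, GRCm38), so how their reads were divided is uncertain. Gpr151, an orphan receptor of habenula neurons, had at least 1 UMI in 47.7% of members, and the limit fell in a continuous range, with 20 wells at 4 UMIs just inside it and 22 wells at 5 UMIs just outside. Tac1 was just inside in 1 well with 9 UMIs and just outside in 1 with 10, and Cck in 9 wells with 2 and in 4 with 3. Wells with a count of fewer than 5 of 10 general neuron markers were taken as not neurons. Among 47 such kept wells, with a median of 6816 counts, 0 had 2 of the cholinergic genes, while 14 of them had 1. The 0 allows a share of up to 6.38% (3 counts of the total, counting error only). It does not cover wells of other cell types that reach 5 neuron markers, such as some members described below.

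Every member had a count of at least 5 of 10 general neuron markers. Synpr, a synaptic vesicle protein, and Sphkap, an anchor of protein kinase A, had been listed as markers of these cells with earlier results of these data known. They are therefore described here, and where later lists and tests include them, that is not support for the label. Synpr was at 652, 743, 918 and 860.1 CPM in members against 218, 295, 232 and 239 CPM in the other kept wells and 33.9, 70.3, 37.4 and 34.4 CPM in Tac1-high wells. Sphkap was at 481, 514, 558 and 498, 279.6, 362, 288 and 306 and 173, 234, 141 and 232 CPM in the same order of groups. Members were the highest of the 3 groups on every plate for both genes. After each well was thinned to 4000 UMIs, Synpr had a UMI in 84.8% of members, 35.4% of the other kept wells and 6.90% of Tac1-high wells, against 97.9% of members and 61.7% of the other kept wells without thinning. In the 212 Gpr151-positive cholinergic wells Synpr lay between, at 308, 314, 426 and 399 CPM.

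**Figure D1:**
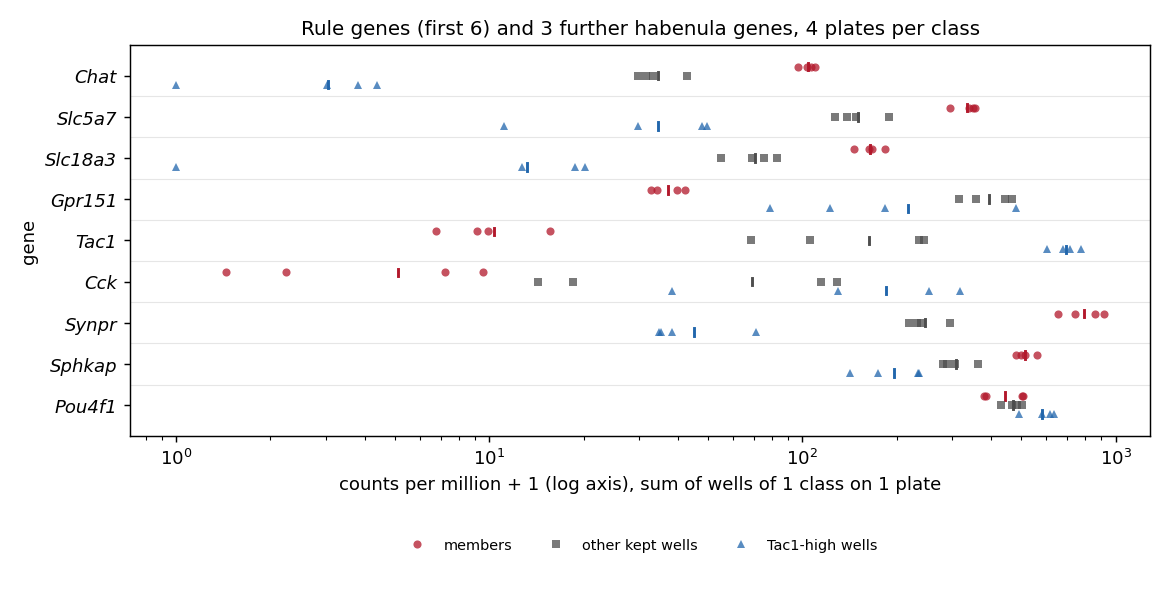
Level of the 6 rule genes, Synpr, Sphkap and Pou4f1 in summed wells, as CPM + 1 on a log axis. Each point is 1 plate and each vertical bar the mean of 4 plates, with members as red circles, other kept wells as grey squares and Tac1-high wells as blue triangles. The 3 cholinergic genes, Synpr and Sphkap are highest in members on each plate, and Pou4f1 overlaps between groups.

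Some members also carried RNA of other cell types. In 9 of 530 members a list of non-neuronal markers reached 20 counts, 1 on P4 plate 1 (microglia), 2 on P4 plate 2 (oligodendrocyte lineage) and 3 on each P7 plate (oligodendrocyte lineage in 3 and 1 of them). These 9 wells held 70.3% of all oligodendrocyte-list counts of the members, 86.7% on P7 plate 1 and 88.8% on P7 plate 2. The summed list stood at 47.2, 58.7, 245 and 256 CPM in members, so it moved with age. Whether such wells held more than 1 cell was not tested, and no doublet caller was run. In 4 of the 9, all from P7, Snap25, a release protein of neurons, had no count and Synpr had 0 or 1, with totals of 14195, 21503, 14259 and 23026 counts and 5 or 6 of the 10 neuron markers, which goes against the label for these 4 wells. The 2 wells of P4 plate 2 were much alike, with 0 counts of Synpr, 1 and 4 of Snap25 and 7 and 5 of the neuron markers. Results that rest on such wells are therefore given with and without these 9 wells, a setting added after the data were seen. Leaving out Tac1 and Cck, which the rule limits, the other 8 markers of the Tac1 type of medial habenula neuron summed to 85.7 to 120.3 CPM in members against 430.1 to 956 CPM in the other kept wells. Leaving out Gpr151, the other 12 lateral habenula markers summed to 604 to 966 CPM in members against 464 to 829 CPM, a sum that holds Cplx1, at 266, 268, 506 and 543 against 158, 159, 234 and 218 CPM. Of 10 tested genes of that list 2 were higher in members (Cplx1 and Necab1) and 4 lower (Gap43, Mef2c, Plch1 and Htr2c), with a median log2 difference of -0.42. Over all tested genes 7.41% were higher and 10.6% lower.

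**Figure D2:**
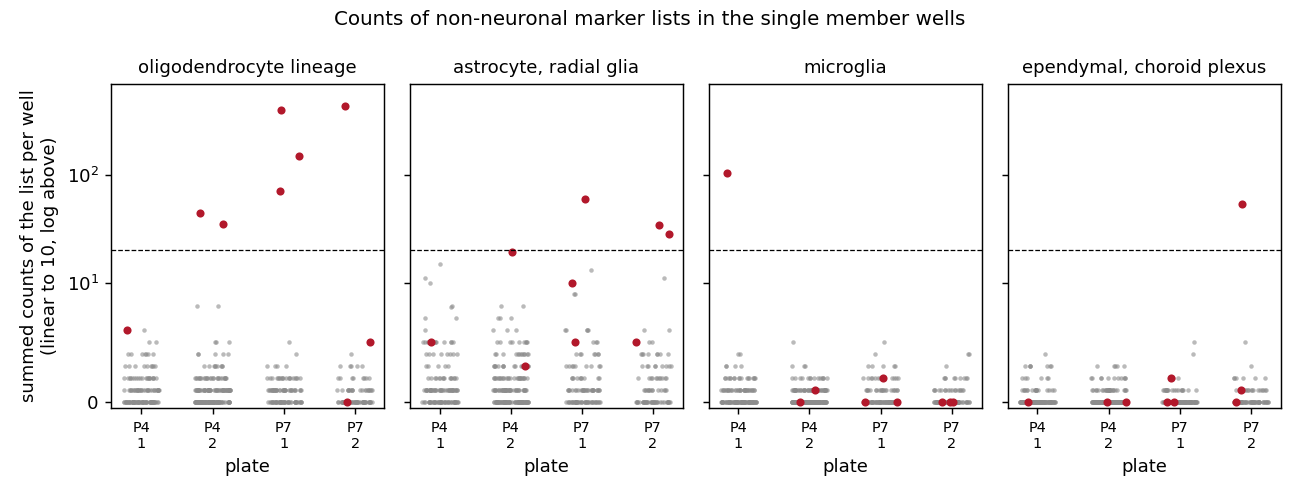
Summed counts of 4 non-neuronal marker lists in each member well, by plate, on an axis that is linear to 10 and logarithmic above. Each point is 1 well, the dashed line marks 20 counts and red points are the 9 wells that reached it on any list, of which the P7 oligodendrocyte-lineage wells run up to 432 counts.

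Members differed from the other kept wells in many of the transcription factors known from the habenula. Over all genes, edgeR's quasi-likelihood test with plate as a block called 2322 of 12871 (18% of those tested, 7.41% higher and 10.6% lower in members, adjusted p under 0.05). These shares are the background for every list count against the other kept wells in the paragraphs below. Of 31 tested transcription factors of the habenula list, 13 were higher and 7 lower, with a median log2 difference of 0.08, against 0.0027 for all genes. When the reference was limited to the 585 neurons with a Pou4f1 count, a comparison added after the data were seen, 1802 of 12630 genes were called (14.3%, 6.46% higher and 7.81% lower), and of 30 tested factors 13 were higher and 8 lower. The wells were divided on counts from the same libraries, so these tests describe wells so divided and not an independent sample. The share of all genes whose plates did not overlap is not given here. Statements below on overlap of plates, between groups or ages, are therefore descriptions of single genes.

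Ebf3, an early B-cell factor (EBF) family regulator of neuron differentiation, was at 235, 244, 215 and 209.6 CPM in members, 60.8, 74.4, 28.1 and 30.5 CPM in the other kept wells and 62.9, 71.7, 28.1 and 28.4 CPM in the Pou4f1-positive neurons among them. Its log2 difference from the other kept wells was 2.35 ± 0.15 (SE), adjusted p = 4.7e-08, and the groups did not overlap. Its relative Ebf1 was at 589, 591, 513 and 499 against 246, 300.0, 247 and 216 CPM, a smaller difference of 1.15 ± 0.06, adjusted p = 7.2e-09. Lmo3, a LIM-only cofactor of transcription factors, was at 619.7, 636, 619.5 and 554 against 190.2, 231, 92.8 and 134 CPM, with a difference of 2.01 ± 0.14, adjusted p = 1.1e-07. Neurod2, a basic helix-loop-helix (bHLH) factor of neuron maturation that is not on the list, was at 113, 124, 94.8 and 115 against 40.4, 41.9, 20.6 and 23.1 CPM, with a difference of 1.91 ± 0.13, adjusted p = 8.4e-08. For all 4 genes each member plate lay above each plate of the other kept wells. Ebf3, Lmo3 and Neurod2 were chosen for large differences with the same sign on every plate, so for them this is a description.

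Further bHLH factors went in opposite directions. Bhlhe22 (26.6, 35.9, 25.7 and 24.0 against 6.67, 11.5, 5.98 and 7.17 CPM) and Nhlh1 (21.9, 14.6, 18.9 and 27.1 against 4.44, 6.49, 2.89 and 5.31 CPM) were higher in members, with differences of 1.89 and 2.19. Nhlh2 was lower, at 217, 236, 165 and 213 against 452, 421, 465 and 504 CPM, with a difference of -1.13 ± 0.09, adjusted p = 2.7e-07. Lhx9, a LIM-homeodomain factor, was also lower at 603, 581, 419 and 444 against 870.1, 908, 801 and 904 CPM, with a difference of -0.75 ± 0.07, adjusted p = 3.5e-06. Srrm4, a neuronal splicing regulator of microexons that stands outside the list, was higher at 135, 141, 123 and 115 against 47.8, 34.4, 22.1 and 31.3 CPM (1.99 ± 0.13, adjusted p = 4.1e-08). The factor whose locus carries the reporter, Pou4f1, was at 506, 503, 379 and 385 against 484, 499.96, 428 and 466 CPM and did not pass (-0.07 ± 0.06, adjusted p = 0.58), while against Pou4f1-positive neurons its difference was -0.19 ± 0.06, adjusted p = 0.049, a reference that was chosen on this gene.

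Since Ebf3 and Ebf1 were both higher, the promoters of the 10 genes with the highest differences were searched, after these values were seen, for the EBF motif TCCCNNGGGA, which reads the same on both strands. RefSeq promoters (GRCm38.p6, the 250 bases before each start) were used for 8 of the genes, and none was used for Ccbe1 and Smoc1, which are named only. Of these 8 genes 1 held a match, and 256 of all 32851 promoters (0.779%) held it. The match was in the Neurod2 promoter, minus strand of chromosome 11, 98329646 to 98329895, beginning 104 bases before the start of transcription. It is shown because it belongs to the 1 matching gene, with the motif in capitals:
Neurod2: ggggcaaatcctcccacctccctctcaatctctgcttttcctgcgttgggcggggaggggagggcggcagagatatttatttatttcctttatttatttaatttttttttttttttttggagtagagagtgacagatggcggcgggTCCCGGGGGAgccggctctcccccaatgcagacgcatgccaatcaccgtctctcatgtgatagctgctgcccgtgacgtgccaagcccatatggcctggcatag
A match is a description of these letters and not evidence of binding.

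Of the other genes with the highest differences, 5 encode secreted, lectin or adhesion proteins. Ccbe1, a secreted protein with collagen and EGF-like domains, was at 56.96, 80.2, 97.9 and 89.6 against 17.0, 16.5, 6.60 and 12.8 CPM (2.74 ± 0.23, adjusted p = 5.6e-07). Smoc1, a secreted calcium-binding matrix protein, was at 104, 117, 158 and 200.2 against 38.5, 51.4, 27.9 and 27.6 CPM (2.06 ± 0.20, adjusted p = 2.7e-06). Clec18a, a C-type lectin, was at 99.8, 103, 144 and 133 against 31.1, 32.9, 34.7 and 28.2 CPM (1.95 ± 0.11, adjusted p = 9.0e-09). Ntng1, the membrane-anchored adhesion protein netrin-G1, was at 152, 197, 240.3 and 185 against 60.0, 77.9, 37.4 and 52.1 CPM (1.84 ± 0.16, adjusted p = 1.2e-06), and Cdh20, a cadherin, at 76.1, 66.9, 61.5 and 68.2 against 20.0, 34.5, 17.1 and 17.5 CPM (1.69 ± 0.15, adjusted p = 1.2e-06). These 5 genes were chosen for large differences with the same sign on every plate, so that none overlapped between the groups is only a description. Each kept its call against Pou4f1-positive neurons.

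The genes with the lowest differences were of 2 kinds. Slc1a3, Id3, Col1a1, Col3a1, Igf2, Col1a2 and Id4, which mark glia, progenitors or connective tissue, differed by -5.17, -5.12, -4.92, -4.82, -4.60, -4.39 and -4.28 against all other kept wells. Against Pou4f1-positive neurons Slc1a3, Id3 and Col1a1 were too low to test, Igf2 and Col1a2 did not pass (adjusted p = 0.13 and 0.11), and Col3a1 and Id4 differed by -1.88 and -3.59. The other 3 kept their difference with that reference. Pde11a, a phosphodiesterase of cyclic nucleotides, was at 3.75, 1.99, 5.15 and 4.69 against 59.7, 32.5, 141 and 145 CPM (-4.47 ± 0.17, adjusted p = 1.3e-10, and -4.57 against neurons). Wif1, a secreted inhibitor of Wnt proteins, was at 9.70, 4.43, 6.86 and 6.25 against 113, 118, 167 and 263 CPM (-4.47 ± 0.18, adjusted p = 2.5e-10, and -4.57 against neurons). Gad1, which makes GABA, was at 1.56, 1.33, 3.43 and 8.33 against 61.7, 2.00, 119 and 134 CPM (-4.39 ± 0.29, adjusted p = 4.6e-08, and -4.47 against neurons), with P4 plate 2 low in both groups.

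**Figure D3:**
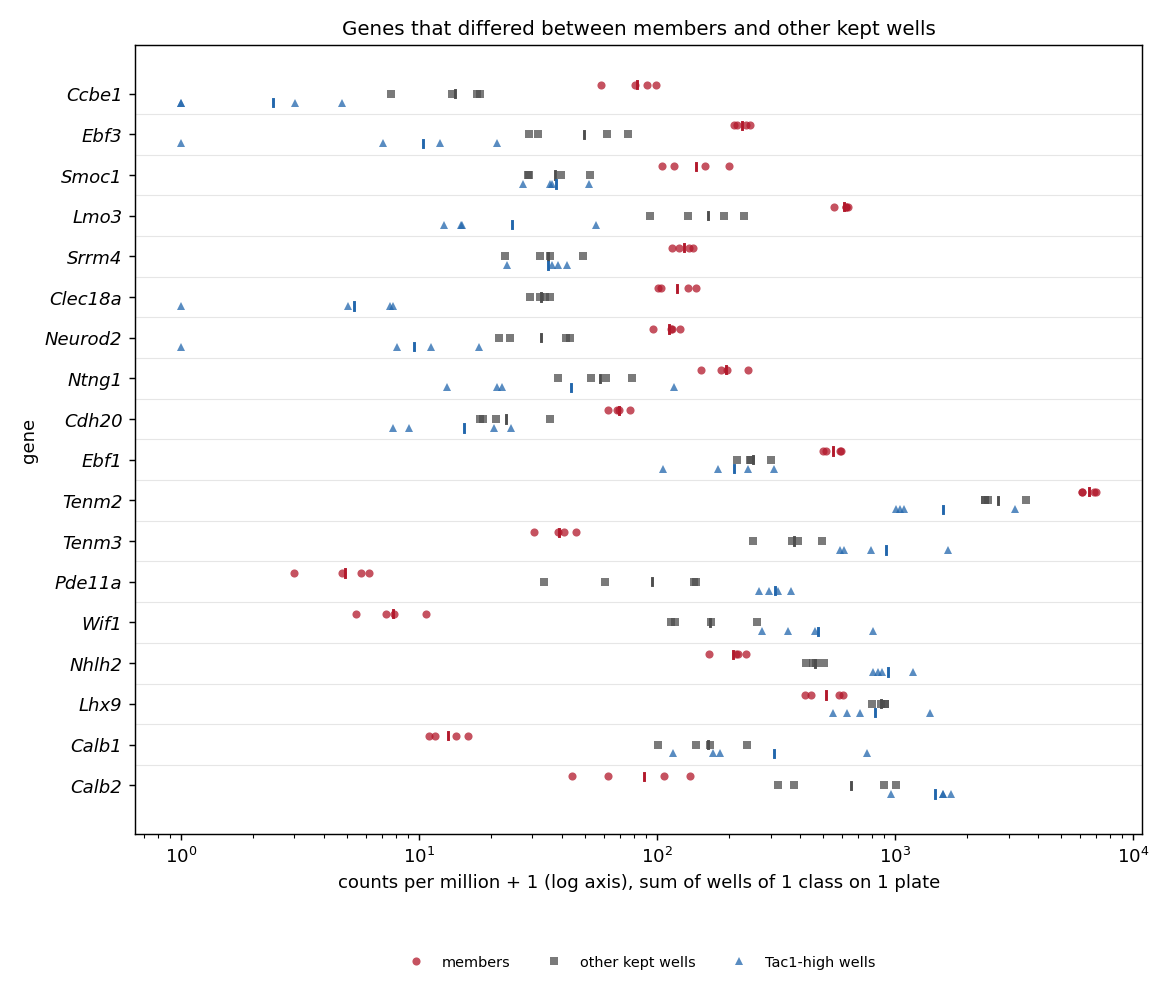
Level of 18 genes that differ between members and the other kept wells, as CPM + 1 on a log axis. Each point is 1 plate and each vertical bar the mean of 4 plates, with members as red circles, other kept wells as grey squares and Tac1-high wells as blue triangles. Ccbe1, Ebf3, Lmo3, Neurod2 and Tenm2 lie higher in members than in the other kept wells, and Tenm3, Pde11a, Wif1, Nhlh2, Calb1 and Calb2 lower.

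Of 9 tested genes for synthesis, transport and breakdown of acetylcholine outside the rule, edgeR's test called 0 against 18% of all genes, and 4 had an unadjusted p under 0.05, 1 higher and 3 lower, against 3642 of all 12871 genes (DESeq2 also called 0). So few genes do not tell the list from the background. Ache, which breaks down acetylcholine, was at 94.8, 71.7, 109 and 116 against 86.0, 71.9, 107 and 119.6 CPM (0.05 ± 0.08, adjusted p = 0.73), and the plates of the groups overlapped. The lowest adjusted p of the list was 0.086, for the choline transporter-like gene Slc44a2 (32.5, 29.9, 33.3 and 24.0 against 35.9, 42.4, 41.1 and 33.5 CPM).

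Most tested nicotinic receptor subunits were higher in members. Of 8 tested, 6 were higher, 1 was lower and Chrna7 did not pass (median log2 difference 0.58), and DESeq2 called 5, without Chrna5 and Chrnb2 (adjusted p = 0.078 and 0.26). Chrna3 (alpha3) was at 458, 472, 539 and 544 against 356, 382, 292 and 342 CPM (0.59 ± 0.08, adjusted p = 1.0e-04), Chrnb4 (beta4) at 82.9, 92.3, 114 and 102 against 60.0, 59.9, 61.7 and 72.0 CPM (0.66 ± 0.09, adjusted p = 1.2e-04) and Chrna5 (alpha5) at 11.3, 12.0, 13.0 and 14.6 against 7.04, 6.99, 7.02 and 4.78 CPM (1.00 ± 0.25, adjusted p = 0.01). These 3 genes lie next to each other on chromosome 9 (GRCm38, 54980880 to 55048779). For each of them all member plates were above all plates of the other kept wells, a description without the share over all genes. Chrna6 (alpha6) was at 23.5, 29.0, 60.5 and 49.5 against 18.5, 19.0, 17.5 and 22.3 CPM (1.08 ± 0.20, adjusted p = 0.001) and Chrnb3 (beta3) at 103, 106, 174 and 132 against 80.4, 69.4, 108 and 93.8 CPM (0.57 ± 0.08, adjusted p = 1.2e-04). Chrna4 (alpha4) was lower, at 16.3, 17.3, 27.1 and 20.3 against 26.7, 25.5, 41.1 and 47.3 CPM (-0.74 ± 0.15, adjusted p = 0.0022), with the groups overlapping, as they did for Chrnb3. Chrna4 was not called without the 3 upper limits (adjusted p = 0.35), nor Chrnb3 without the plate block (0.071). Its usual partner Chrnb2 (beta2) passed with all plates (0.34 ± 0.10, adjusted p = 0.024) but in none of the 4 fits that left out 1 plate, where its adjusted p was 0.064 to 0.084, and not against Pou4f1-positive neurons (adjusted p = 0.12).

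Several proteins that modulate or assemble nicotinic receptors were higher as well. Of 8 tested, 4 were higher and none lower. Lynx1, a membrane-anchored modulator of these receptors, was at 5.94, 8.86, 25.4 and 21.9 against 5.19, 1.497, 4.54 and 5.58 CPM (1.86 ± 0.34, adjusted p = 0.0011), with the highest values in members at P7. Tmem35a, the chaperone NACHO, was at 96.7, 102, 117 and 101 against 50.7, 62.4, 37.1 and 56.8 CPM (1.07 ± 0.13, adjusted p = 2.5e-05), and the groups did not overlap. Lypd6b was at 5.63, 13.1, 12.4 and 16.7 against 3.70, 2.00, 5.16 and 8.23 CPM (1.32 ± 0.31, adjusted p = 0.0066). Ly6e (0.45 ± 0.10, adjusted p = 0.0049) lost its call without P7 plate 1 (adjusted p = 0.065), after thinning (0.20) and without the upper limits (0.44). Lypd6b lost it without the upper limits (0.10) and without the plate block (0.069). Of the muscarinic receptors Chrm2, the M2 receptor, was higher at 6.26, 6.64, 8.93 and 8.33 against 4.07, 3.49, 1.86 and 1.33 CPM (1.59 ± 0.40, adjusted p = 0.01).

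Members had counts of glutamate transporter genes and few of Gad1 and Gad2, which were not low in members alone. Slc17a7, vesicular glutamate transporter 1, was at 221, 198, 358 and 446 against 137, 131, 172 and 235 CPM (0.86 ± 0.08, adjusted p = 1.1e-06), with overlapping plates. Slc17a6, vesicular glutamate transporter 2, was at 525, 541, 564 and 549 against 493, 493, 549 and 531 CPM and did not pass (0.10 ± 0.05, adjusted p = 0.23). Without the upper limits Slc17a6 was called (0.24, adjusted p = 0.0497). Slc17a8, vesicular glutamate transporter 3, was lower at 1.56, 1.33, 3.43 and 0 against 8.52, 13.5, 18.2 and 24.7 CPM (-3.13 ± 0.41, adjusted p = 5.9e-05), and Gad2, like Gad1 an enzyme of GABA synthesis, at 2.82, 1.55, 0.686 and 0 against 11.5, 5.49, 9.29 and 9.03 CPM (-2.64 ± 0.46, adjusted p = 8.0e-04). Of 8 tested transmitter genes 1 was higher and 4 lower. A list of thalamus and other neuron markers that holds Gad1 and Gad2 summed to 15.0, 13.3, 14.8 and 21.9 CPM in members. It was at 19.5, 20.0, 67.4 and 59.8 CPM in the Gpr151-positive cholinergic wells and 571, 23.4, 480 and 462 CPM in Tac1-high wells.

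Of 6 tested neuropeptides, Cartpt was higher and Tac2 and Adcyap1 lower. Tac2, which encodes neurokinin B, was at 186, 107, 433 and 429 against 285, 139.9, 908 and 776 CPM (-0.74 ± 0.09, adjusted p = 2.1e-05), lower in members on each plate. Tac2 was not called without the upper limits (adjusted p = 0.53) or without the plate block (0.41). Adcyap1, which encodes the peptide PACAP, was at 29.4, 30.8, 46.4 and 44.8 against 61.5, 46.4, 141 and 206 CPM (-1.40 ± 0.18, adjusted p = 3.8e-05), and Cartpt at 265, 240.0, 211 and 212 against 180.2, 197, 141 and 157 CPM (0.49 ± 0.07, adjusted p = 9.4e-05). Among 14 genes of dense-core granules 3 were higher (Cadps2, Scg3 and Chgb) and 4 lower (Scg2, Pcsk2, Pcsk1 and Pam). Scg2, the precursor of secretoneurin, was at 36.9, 45.2, 91.3 and 93.2 against 89.3, 90.4, 179 and 248 CPM (-1.13 ± 0.09, adjusted p = 4.3e-07).

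Opioid, serotonin and GABA-B receptors differed between the groups. Oprm1, the mu opioid receptor, was at 15.7, 5.53, 13.0 and 12.0 CPM in members against 145, 255, 221 and 279 CPM (-4.27 ± 0.21, adjusted p = 2.5e-09). Htr5b and Htr4, serotonin receptors, were at 2.19, 5.31, 7.21 and 6.25 against 27.0, 33.4, 28.1 and 44.1 CPM (-2.62 ± 0.23, adjusted p = 8.0e-07) and at 20.7, 27.2, 28.5 and 24.5 against 65.2, 93.9, 105 and 82.9 CPM (-1.75 ± 0.10, adjusted p = 1.3e-08). In the Gpr151-positive cholinergic wells, which the rule leaves out of the members, Oprm1 was at 95.3, 158, 147 and 155 CPM and Htr4 at 105, 117, 193 and 139 CPM, and when the upper limits were dropped so that those wells joined the members, the Htr4 difference became 0.49 (adjusted p = 0.15) and Htr5b and Kctd12 were no longer called (0.26 and 0.51). Gabbr1 was not called without the plate block (0.17). Sstr2, a somatostatin receptor, was also lower (32.5, 42.3, 42.9 and 40.6 against 72.2, 90.4, 106 and 98.3 CPM, -1.18 ± 0.09, adjusted p = 3.4e-07). The GABA-B receptor went the other way, with its subunit Gabbr2 at 1589, 1791, 1706 and 1785 against 1122, 1297, 1081 and 1139 CPM (0.59 ± 0.05, adjusted p = 9.6e-07), Gabbr1 at 1133, 1048, 1253 and 1272 against 921, 875, 1066 and 1136 CPM (0.26 ± 0.05, adjusted p = 0.0015), and the auxiliary subunits Kctd12 and Kctd12b higher by 0.61 and 0.84. Of 15 tested receptors and their partners, 4 were higher, all of the GABA-B complex, and 8 lower.

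**Figure D4:**
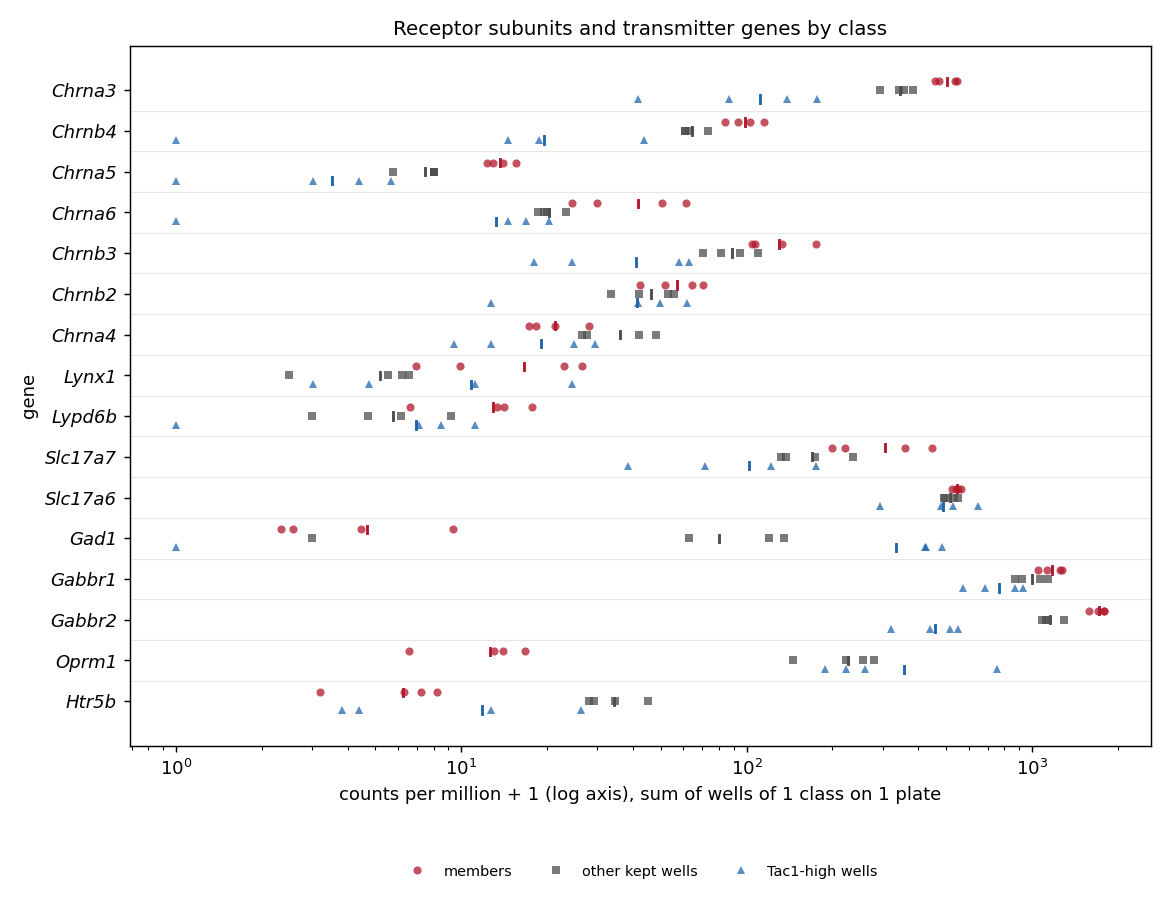
Level of nicotinic receptor subunits, receptor modulators, transmitter genes and other receptors, as CPM + 1 on a log axis. Each point is 1 plate and each vertical bar the mean of 4 plates, with members as red circles, other kept wells as grey squares and Tac1-high wells as blue triangles. Chrna3, Chrnb4 and Gabbr2 are highest in members, Oprm1 and Htr5b lower than in the other kept wells, and Slc17a6 overlaps.

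Among 32 tested pacemaker, sodium, calcium and potassium channel genes, 7 were higher and 11 lower. Kcnma1, the large-conductance calcium-activated potassium channel, was at 7045, 9107, 8004 and 8278 against 5433, 6892, 5989 and 5448 CPM (0.48 ± 0.05, adjusted p = 3.8e-06), Kcna2 at 111, 130.01, 178 and 159.9 against 73.0, 108, 98.3 and 90.6 CPM (0.67 ± 0.09, adjusted p = 1.0e-04) and Hcn4, a pacemaker channel, at 77.6, 65.1, 78.3 and 86.5 against 64.1, 54.4, 61.5 and 68.0 CPM (0.33 ± 0.09, adjusted p = 0.013). Hcn4 did not pass against Pou4f1-positive neurons (adjusted p = 0.087). Lower in members were Kcng4, a modifying subunit of voltage-gated potassium channels, at 17.2, 5.98, 13.7 and 13.5 against 94.2, 59.4, 171 and 173 CPM (-3.21 ± 0.16, adjusted p = 3.5e-09), Kcnq3, an M-current subunit (8.76, 12.4, 9.61 and 15.6 against 54.9, 39.4, 67.9 and 64.6 CPM, -2.25 ± 0.17, adjusted p = 2.8e-07), and Kcnk9, a leak channel (28.8, 30.6, 34.0 and 35.9 against 84.9, 84.4, 114 and 114 CPM, -1.58 ± 0.10, adjusted p = 2.4e-08).

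Of 29 tested synaptic genes, a list that holds Synpr and Sphkap, 16 were higher and 4 lower, and of 10 general neuron markers 6 were higher and none lower. Against Pou4f1-positive neurons 11 of 29 synaptic genes were higher and 5 lower, and 1 of 10 neuron markers was higher and 1 lower. The complexins, which clamp and promote vesicle fusion, were both higher, Cplx1 at 266, 268, 506 and 543 against 158, 159, 234 and 218 CPM (1.03 ± 0.09, adjusted p = 5.7e-07) and Cplx2 at 216, 194, 231 and 267 against 122, 101, 99.9 and 108 CPM (1.10 ± 0.08, adjusted p = 2.2e-07). Syt6, a synaptotagmin, was lower at 236, 272, 343 and 444 against 856, 1086, 974 and 1563 CPM (-1.77 ± 0.07, adjusted p = 2.8e-10), with no overlap. Nrgn, a calmodulin-binding protein, was higher at 1789.8, 1778, 2116 and 1818 against 1349, 1387, 1233 and 998 CPM (0.63 ± 0.07, adjusted p = 2.1e-05). The calcium buffers calbindin and calretinin were lower, Calb1 at 10.0, 13.3, 10.6 and 15.1 against 99.7, 145, 166 and 239 CPM (-3.64 ± 0.12, adjusted p = 6.7e-11) and Calb2 at 61.3, 43.0, 106 and 137 against 376, 322, 897 and 1007 CPM (-2.86 ± 0.08, adjusted p = 7.0e-12), both without overlap. Of the 14 tested calcium-binding genes 4 were higher and 4 lower.

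Axon guidance and adhesion genes split almost evenly, with 16 of 44 higher and 20 lower in members. The teneurins, large adhesion proteins of synaptic partner choice, went in opposite directions. Tenm2 was at 6094, 6849, 7013 and 6095 against 2389, 3549, 2391 and 2467 CPM (1.31 ± 0.07, adjusted p = 7.8e-09), and Tenm3 at 37.6, 39.9, 29.5 and 44.8 against 253, 368, 390.3 and 490.1 CPM (-3.25 ± 0.11, adjusted p = 8.0e-11), neither with overlap. Most Tenm2 reads in members (94.3%) came from unspliced RNA, as did 99.5% of Dcc reads and 73.4% of Slit2 reads. Receptors of the midline cues differed as well. Dcc, the netrin receptor, was at 1272, 1331, 904 and 877 against 687, 789, 527 and 427 CPM (0.89 ± 0.06, adjusted p = 4.2e-08), while its partner Unc5d was lower at 10.0, 3.10, 4.46 and 7.29 against 60.9, 29.5, 45.1 and 50.0 CPM (-2.91 ± 0.18, adjusted p = 2.1e-08). Robo2, a Slit receptor, was lower at 22.8, 39.4, 25.1 and 28.6 against 86.8, 62.5, 187 and 159 CPM (-1.95 ± 0.24, adjusted p = 2.9e-05), as was the ligand Slit2 at 470.5, 387, 345 and 294 against 756, 1077, 858 and 834 CPM (-1.22 ± 0.10, adjusted p = 6.9e-07). Rgma, a ligand of neogenin, was higher at 419, 379, 321 and 348 against 231, 240.2, 141 and 159 CPM (0.98 ± 0.08, adjusted p = 4.7e-07), and Plxna4, a semaphorin receptor, at 84.8, 86.4, 103 and 84.9 against 36.3, 49.4, 18.6 and 27.9 CPM (1.55 ± 0.19, adjusted p = 2.4e-05).

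Members were also compared with the Tac1-high wells alone. edgeR's test called 1372 of 10966 genes (12.5%), 686 in each direction (6.26% each). The Tac1-high wells on P4 plate 2 numbered only 4, and the count was 765 without P7 plate 1 and 1642 without P4 plate 2. The genes with the highest differences were Ccbe1 (5.17), Lmo3 (4.91), Clec18a (4.63), Synpr, Ebf3 (4.45), the zinc-finger repressor Zeb2 (4.31), Lhfp (4.29), Tpbgl (4.05), the receptor-like Il1rapl2 (4.02) and Trhde, the enzyme that degrades thyrotropin-releasing hormone (3.82). Lmo3 was at 54.2, 11.7, 14.0 and 14.2 CPM in Tac1-high wells and 218, 214, 166 and 204 CPM in the Gpr151-positive cholinergic wells, so each plate of those wells lay between the Tac1-high wells and the members. Zeb2 was at 61.3, 83.3, 65.6 and 64.6 CPM in members and 3.39, 0, 1.87 and 5.06 CPM in Tac1-high wells, where P4 plate 2 was listed at 0.

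Among the genes with the lowest differences from Tac1-high wells were Pde11a (-6.30), Wif1 (-5.99), the cut-homeodomain factor Onecut1 (-5.13), Kcng4 (-4.81), Oprm1 (-4.67), Wfdc1 (-4.54), the relaxin-family receptor Rxfp2 (-4.46) and Tenm3 (-4.43), with adjusted p up to 1.9e-07. Onecut1 was at 5.63, 2.66, 0.686 and 7.81 CPM in members and 159, 70.3, 164 and 166 CPM in Tac1-high wells. Gad1 was also far apart, at 483, 0, 423 and 421 CPM in Tac1-high wells and listed at 0 in the 4 wells of P4 plate 2 (-6.54 ± 0.29, adjusted p = 1.4e-15).

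Some genes with small differences between members and all other kept wells were far apart here. Etv1, an ETS factor, was at 1075, 1407, 986 and 989.8 CPM in members and 1216, 1612, 1058 and 972 CPM in the other kept wells, but at 116, 387, 149.8 and 255 CPM in Tac1-high wells (2.45 ± 0.16, adjusted p = 6.6e-12). Nr4a2, an orphan nuclear receptor, was at 210.5, 434, 177 and 276 CPM in Tac1-high wells against 946, 1054, 911 and 1017 CPM in members (2.01 ± 0.14, adjusted p = 2.6e-11). Nrgn was at 227, 305, 192 and 191 CPM in Tac1-high wells, with a difference of 3.17 ± 0.14, adjusted p = 2.2e-15. Chrna3 and Chrnb4 were at 40.7, 176, 85.9 and 138 and 13.6, 0, 17.7 and 42.6 CPM, and differed by 2.39 ± 0.18, adjusted p = 8.9e-11 and 2.07. Of 8 tested nicotinic subunits 5 were higher in members and none lower, and of 17 genes of axon growth and immature neurons 1 was higher and 10 lower. Htr4 went the other way, since Tac1-high wells (17.0, 35.1, 21.5 and 44.6 CPM) did not differ from members beyond the spread (-0.16 ± 0.30, adjusted p = 0.84). For Etv1 and Nr4a2 the Gpr151-positive cholinergic wells had the highest values of the named groups, at 2074, 2197, 1929 and 1696 and 1023, 1128, 1007 and 1059 CPM.

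From P4 to P7, 8 of 29 tested synaptic genes rose in members and none fell, and 11 of 17 genes of axon growth and immature neurons fell and none rose. Of 32 channel genes 1 rose and 2 fell, and of 6 neuropeptides 1 rose. edgeR's test over 2 plates an age called 448 of 12657 genes (3.54%), 268 higher at P7 (2.12%) and 180 lower (1.42%). Fits that left out a plate, cited below for age, had a single plate at that plate's age, so a call kept there is weak support. Without the 9 wells with non-neuronal markers it called 421, 243 of them higher. The genes with the highest changes included the oligodendrocyte genes Bcas1 (3.38) and Cnp (1.74), which without those 9 wells were not called (adjusted p = 0.52 and 0.68), Cnp then changing sign (-0.31). Of 7 tested genes of the oligodendrocyte list 6 rose with all members, and without the 9 wells 0 of 3 tested were called (edgeR, 1 at an unadjusted p under 0.05, in the other direction).

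The remaining genes with the highest changes kept their call without those wells. Tac2 was at 186, 107, 433 and 429 CPM, rose by 1.57 ± 0.17, adjusted p = 2.5e-05, and was the 1 peptide of 6 that changed. Fgf1, a growth factor, was at 19.4, 15.1, 62.1 and 49.5 CPM (1.72 ± 0.20, adjusted p = 5.7e-05), and Rgs4, which turns off G-protein signals, at 25.3, 23.7, 74.9 and 71.9 CPM (1.58 ± 0.17, adjusted p = 2.9e-05). Pcsk1, a prohormone convertase, was at 16.6, 23.7, 51.5 and 69.3 CPM (1.53 ± 0.21, adjusted p = 2.5e-04). In each of these 4 genes both P7 plates were above both P4 plates, which was a condition for a place among the highest changes. Thy1, a surface protein of mature neurons, rose by 1.53 ± 0.12, adjusted p = 1.1e-06, the clock repressor Nr1d2 by 1.51 ± 0.16, adjusted p = 2.1e-05 and Scn2b, a sodium channel beta subunit, by 1.5 ± 0.20, adjusted p = 1.4e-04. In the other kept wells Fgf1 was at 21.9, 18.0, 54.1 and 50.2 CPM and Tac2 at 285, 139.9, 908 and 776 CPM. The log2 change of Tac2 was smaller in members than in those wells (-0.47 ± 0.12, adjusted p = 0.033), a difference that was not called without the 9 wells (adjusted p = 0.07).

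The synaptic and cholinergic groups changed in part. Of 29 synaptic genes 8 rose and none fell, and 9 rose without the 9 wells. Cplx1 was at 266, 268, 506 and 543 CPM (0.97 ± 0.11, adjusted p = 4.5e-05), Vamp1, a vesicle fusion protein, at 24.1, 21.7, 56.99 and 51.6 CPM (1.25 ± 0.18, adjusted p = 4.2e-04) and Syp, synaptophysin, at 333, 273, 459.7 and 496 CPM (0.66 ± 0.12, adjusted p = 0.0025). Vamp2, Sv2a and Snap25 lost their call without P7 plate 2 (adjusted p = 0.052, 0.054 and 0.099), and Snap25 also without P4 plate 1 or P7 plate 1 (0.084 and 0.20). Of 8 nicotinic subunits Chrna6 rose by 1.06 ± 0.19, adjusted p = 0.0029 and Chrnb3 by 0.55 ± 0.14, adjusted p = 0.034, the latter not without P7 plate 1 (adjusted p = 0.38), and the modulator Lynx1 rose by 1.65 ± 0.30, adjusted p = 0.0036. Slc17a7 rose by 0.94 ± 0.12, adjusted p = 1.5e-04. Of the 8 tested genes of the cholinergic list 1 was called, Slc44a1 (0.78 ± 0.18, adjusted p = 0.017), and none without the 9 wells (edgeR, 4 at an unadjusted p under 0.05). The rule genes themselves, which chose the members, were not tested for age.

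Genes of immature neurons fell. Of 17 tested, 11 fell and none rose, and 8 fell without the 9 wells, where Crmp1, Marcksl1 and Stmn2 were just above the threshold (adjusted p = 0.07, 0.06 and 0.075). Stmn1, which destabilises microtubules, was at 74.5, 64.0, 20.6 and 15.6 CPM (-1.90 ± 0.20, adjusted p = 2.1e-05). Dcx, doublecortin, was at 528, 540.4, 228 and 301 CPM (-1.03 ± 0.13, adjusted p = 8.3e-05), and Sox11, a factor of young neurons, at 174, 174, 80.3 and 93.2 CPM (-1.02 ± 0.13, adjusted p = 1.1e-04). Both P4 plates were above both P7 plates in all 3, which for Stmn1 was also a condition for its place among the largest falls. The share of all genes that did so is not given, so this is a description. Gap43, a growth-cone protein, was at 37.6, 18.8, 7.55 and 9.37 CPM (-1.72 ± 0.34, adjusted p = 0.0057), and without P4 plate 1 its adjusted p was 0.0505.

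Outside the list, Mex3a, an RNA-binding protein, was at 99.2, 95.9, 26.1 and 28.1 CPM (-1.85 ± 0.16, adjusted p = 3.2e-06), Vcan, a matrix proteoglycan, at 83.9, 86.8, 33.3 and 32.8 CPM (-1.37 ± 0.16, adjusted p = 5.9e-05) and Igfbpl1 at 53.2, 56.2, 16.1 and 27.1 CPM (-1.39 ± 0.21, adjusted p = 7.2e-04). Fxyd6, AW551984, Trim17, Elavl2, Lmo1 and Trim67 fell by 1.08 to 1.29 on the log2 scale, Trim67 not without P7 plate 1 (adjusted p = 0.081). Among receptors and guidance genes, Cnr1, the cannabinoid receptor, fell (156, 168, 79.7 and 98.4 CPM, -0.88 ± 0.14, adjusted p = 7.1e-04) and Dcc fell (-0.55 ± 0.11, adjusted p = 0.0057), the latter not without P7 plate 2 (adjusted p = 0.062), while Sema5a rose (0.77 ± 0.12, adjusted p = 7.7e-04). Calb2 rose by 1.22 ± 0.17, adjusted p = 2.2e-04. Lhx9 (-0.46 ± 0.11, adjusted p = 0.022) was not called without P7 plate 1 or 2 (adjusted p = 0.14 and 0.085), and Pou4f1 (-0.40 ± 0.11, adjusted p = 0.047) not without P4 plate 2, P7 plate 1 or P7 plate 2 (0.062, 0.18 and 0.20), nor without the 9 wells (0.069). Without the upper limits Gap43, Lhx9, Pou4f1 and Snap25 were not called (adjusted p = 0.18, 0.78, 0.071 and 0.058), and by DESeq2 Chrnb3 and Fos were not (0.11 and 0.39). After thinning to 4000 UMIs, which leaves fewer counts, Fgf1, Vamp1, Scn2b, Chrna6, Cnr1, Sema5a, Elavl2, AW551984, Trim67, Lhx9, Pou4f1, Snap25, Junb and Arc kept their direction and were not called (adjusted p = 0.052 to 0.42).

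**Figure D5:**
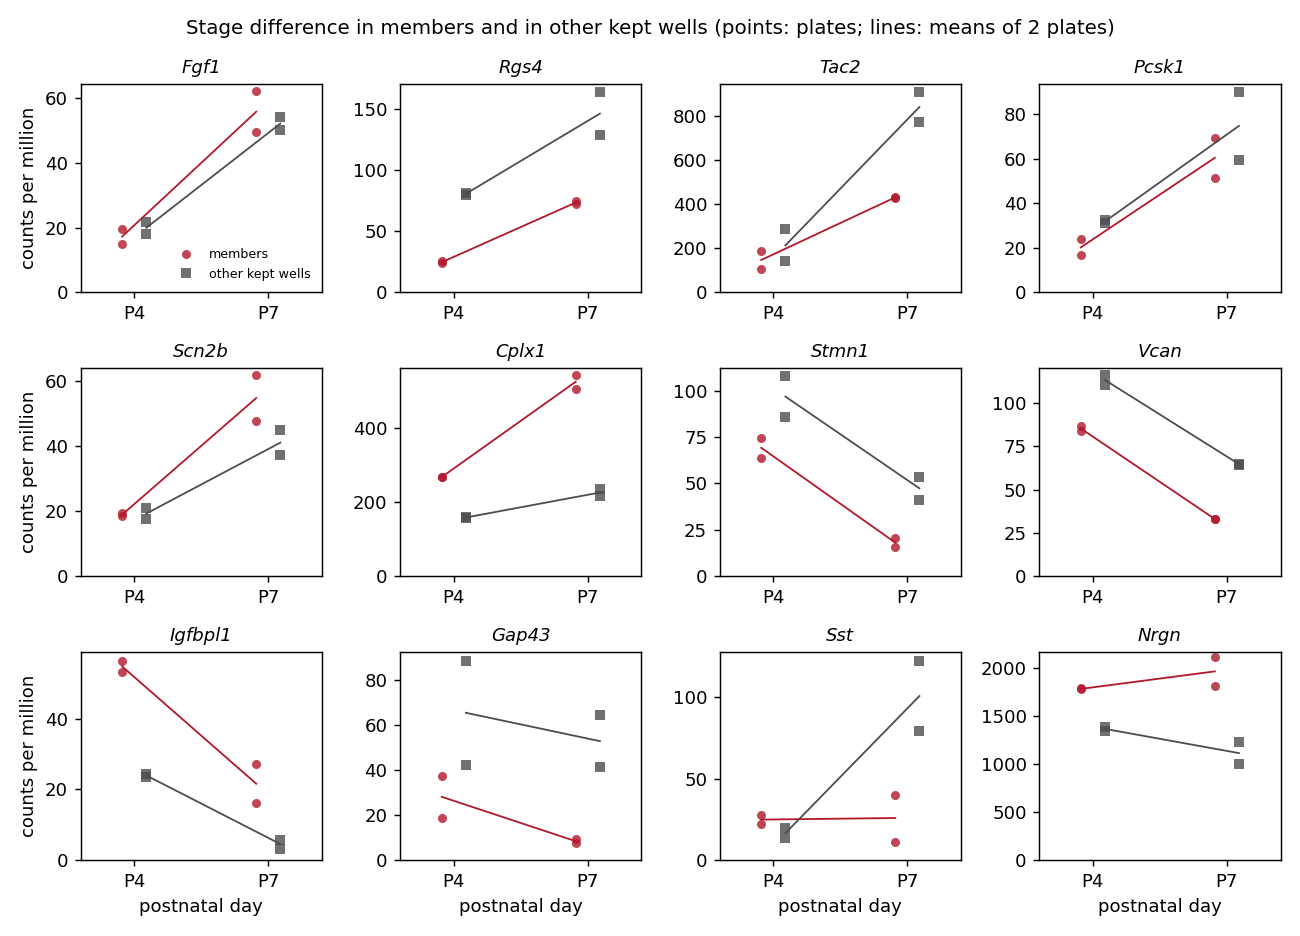
CPM of 12 genes at P4 and P7 in members (red) and the other kept wells (grey), on linear axes from 0. Each point is 1 plate and each line joins the means of 2 plates an age. Fgf1, Rgs4, Tac2, Pcsk1, Scn2b and Cplx1 are higher at P7 in members and Stmn1, Vcan, Igfbpl1 and Gap43 lower, and Sst moves in the other kept wells.

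Whether the change with age was particular to members was tested as the difference between their log2 change and that of the other kept wells. Of the other kept wells, 11 of 148, 4 of 129, 34 of 216 and 38 of 206 were Tac1-high, in plate order. The makeup of that group thus differed with age, and its part in these differences was not tested. edgeR's test called 173 of 13869 genes (1.25%, 0.743% higher and 0.505% lower), 108 without P7 plate 2 and 124 without the 9 wells. The 5 highest, Ccnb1, Timp4, Pbxip1, Bmp4 and Mki67, were at 0 or under 1 CPM in members at P4, so their fitted values depend on the prior count, and without the 9 wells Ccnb1 was not tested and the others not called (adjusted p from 0.62 to 1). With all members, single plates ended the call of each of these 5 (adjusted p up to 1).

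Of the 13 transcription factors that were higher in members, Ebf3 and Lmo3 were called here and the other 11 were not. Ebf3 differed in its change by 1.01 ± 0.17, adjusted p = 3.8e-04 and Lmo3 by 0.79 ± 0.14, adjusted p = 0.0012: members stayed at similar levels with age (-0.18 and -0.10, neither called), while the other kept wells were at 60.8, 74.4, 28.1 and 30.5 CPM for Ebf3 and 190.2, 231, 92.8 and 134 CPM for Lmo3, lower on both P7 plates than on both P4 plates. Ebf3 was called whichever plate was left out, and Lmo3 not without P7 plate 1 (adjusted p = 0.21). Nrgn (0.42 ± 0.08, adjusted p = 0.0038) was not called without P7 plate 2 (0.073), and Synpr (0.44 ± 0.11, adjusted p = 0.028) not without P4 plate 2, P7 plate 1 or P7 plate 2 (0.42, 0.31 and 0.052). Sst, somatostatin, was at 27.6, 22.2, 40.2 and 11.5 CPM in members and 19.6, 13.5, 78.9 and 122 CPM in the other kept wells, with a difference in change of -2.43 ± 0.40, adjusted p = 3.8e-04 that was called in all 4 fits. Adcyap1 (-1.06 ± 0.22, adjusted p = 0.0061), Robo2 (-1.49 ± 0.26, adjusted p = 9.0e-04) and Gap43 (-1.42 ± 0.29, adjusted p = 0.0048) were not called in 2, 2 and 1 of those fits (adjusted p up to 0.20, 0.22 and 0.13). Vwc2l, Cntnap5a, Tom1l1 and Stk32b differed by -2.11, -2.06, -1.89 and -1.89, none in all 4 fits (adjusted p up to 0.14, 0.075, 0.54 and 0.74). DESeq2 called 23 genes in all and did not call Lmo3, Synpr, Adcyap1, Robo2 or Egr1 (adjusted p = 0.29 to 1), and it gave no adjusted p for Sst, Gap43 or Ier2. After thinning Sst, Synpr, Lmo3, Gap43, Adcyap1, Cntnap5a and Stk32b were not called (0.091 to 0.93). With all 3 cholinergic genes required Sst, Robo2, Stk32b, Tom1l1 and Gap43 were not (0.051 to 0.27). Without the upper limits Gap43 and Robo2 differed by -0.42 and -0.64 (0.83 and 0.46), Vwc2l and Tom1l1 by -0.99 and -0.92 (0.49 and 0.59), and Adcyap1 and Stk32b were not called either (0.24 and 0.17).

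Genes that respond to cell dissociation also moved differently. Of 15 tested, 7 were higher in the change of members than in that of other wells (Ier2, Egr1, Junb, Fos, Nr4a1, Fosb and Jun), also without the 9 wells. Fos was at 299.6, 300.0, 391 and 669 CPM in members and 525, 472, 398 and 504 CPM in the other kept wells (0.90 ± 0.12, adjusted p = 1.4e-05), Egr1 at 90.5, 40.5, 59.5 and 90.2 and 215, 203, 94.2 and 83.2 CPM (1.42 ± 0.23, adjusted p = 3.1e-04), and Ier2 at 8.13, 4.21, 9.27 and 18.2 and 73.8, 52.0, 24.0 and 16.5 CPM (2.70 ± 0.40, adjusted p = 1.2e-04). Each of these 3 was called whichever plate was left out, but Egr1 not by DESeq2 (adjusted p = 0.79) or with all 3 cholinergic genes required (0.076), and Ier2 not after thinning (0.17). Within members Junb, Arc and Fos rose from P4 to P7, Fos not without P7 plate 2 (adjusted p = 0.17). Their part in the other age results was not tested. Against all other kept wells 9 of the 15 were lower in members and 1 higher, and against Pou4f1-positive neurons 1 was higher and none lower (4 at an unadjusted p under 0.05). Against Tac1-high wells 4 of 14 were higher in members (Junb, Fos, Fosb and Egr1) and none lower.

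Members also varied among themselves. In 526 members thinned to 4000 UMIs, 1350 genes had a mean of at least 0.5 UMIs on every plate, and the lowest ratio of variance to mean over the plates had a median of 1.04 and a 95th percentile of 1.54 over these genes. Tenm2 had the highest, 12.1 to 15.9 over the plates, with 0 to 94 UMIs a cell and a median of 22. Kcnma1 had ratios of 4.60 to 6.80 with 0 to 75 UMIs, and Cadm2, an adhesion protein, 4.44 to 8.67 with 0 to 44. In members 94.3% of Tenm2, 76.6% of Kcnma1 and 82.6% of Cadm2 reads were unspliced. Pcp4 and Erbb4 are named after their values were seen. Pcp4, a calmodulin regulator with mostly spliced reads (2.32% unspliced), had ratios of 2.84 to 4.87, with no UMI in 92 members and up to 30 in others. Erbb4, a neuregulin receptor, had no UMI in 345 members and up to 15 in others, with ratios of 2.83 to 3.84. Its reads in members were 92.4% unspliced. Without the 9 wells with non-neuronal markers (517 members) the ratios were 11.4 to 15.8 for Tenm2, 4.38 to 6.19 for Kcnma1, 4.51 to 8.73 for Cadm2, 2.83 to 4.78 for Pcp4 and 2.70 to 3.22 for Erbb4. Pcp4 then had no UMI in 86 members and Erbb4 in 343, with up to 10 UMIs in others.

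The share of kept wells that met the rule was 48.4% (95% exact binomial interval 42.5 to 54.4%) and 59.9% (54.4 to 65.3%) on the P4 plates and 33.7% (28.6 to 39.2%) and 29.9% (24.8 to 35.5%) on the P7 plates. The mean fell from 54.2% ± 8.14 to 31.8% ± 2.69 (SD, n = 2 plates an age), and an exact permutation test gave p = 0.333, the smallest that 2 against 2 allows. When wells were thinned to 4000 UMIs before the rule was applied, the shares were 32.6% ± 6.87 and 27.6% ± 1.19 (exact permutation p = 0.667), and without the 3 upper limits 68.9% and 55.1%. The count limits were not rescaled for thinned wells, so the upper limits on Gpr151, Tac1 and Cck were looser there. The thinned rule chose 75, 111, 85 and 75 wells in plate order, not the same set, so its shares do not isolate depth. Of the 188, 233, 191 and 152 kept wells with at least 2 cholinergic genes, 48, 39, 76 and 58 were over the Gpr151 limit. The Tac1 limit was reached in 0, 1, 9 and 8 of them and the Cck limit in 1, 0, 9 and 10. Fewer such cells on the plate, fewer that reach the lower limits and more that the upper limits leave out cannot be told apart.

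Wells that met the rule were rare at the other ages, where wells were mostly less deep. The other kept wells there had plate medians of 4395 to 14737 counts, against 14646 to 20463 on the P4 and P7 plates. Since the rule selects deeper wells, the part of depth in this rarity was not tested. On the 9 embryonic plates (E11 to E18) 0 to 4 kept wells a plate met it. E11 plate 2, with 0 of 345, allows a share of up to 0.870%, and E13 plate 1, with 0 of 153, up to 1.96%. Adult plate 1 had 1 of 56. On adult plate 2 it was met by 25 of 342 (7.31%, 4.79 to 10.6%), and by 121 (35.4%) without the 3 upper limits. With 1 plate there is no test, and the intervals cover counting error only. Synpr was at 1519.8 CPM (1419 to 1626) in those 25 wells against 560 in the other 317, Lmo3 at 352 (304 to 405) against 112, Ebf3 at 205 (169 to 247) against 28.4 and Neurod2 at 99.7 against 21.7. Of the 317 wells 152 were neurons with a Pou4f1 count. Cdh20 was lower in the 25 wells than in the 317, at 61.6 (42.7 to 86.1) against 95.2 CPM, and higher than in the 152, at 28.0 CPM. Wif1 was lower, at 3.62 (0.439 to 13.1) against 87.9 CPM, while Pde11a, at 52.7 against 40.7 CPM, was not.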

How the data were processed

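The deposited values are expected counts per gene and well: UMI counts that the authors corrected for UMI collisions, as the values themselves show, since inverting that correction over 4096 UMI sequences gave whole numbers (tolerance 1e-06). Per the submitters' processing notes the tools include Trim Galore and STAR 2.5.3a and the genome build mm10. For the counting program and its use of strand, the sources used here give nothing. Kept wells were summed per plate and class and rounded. edgeR 4.0.16 (R 4.3.3; filterByExpr, TMM, quasi-likelihood test, Benjamini-Hochberg threshold 0.05) was fitted over all genes, with plate as a block between classes, and tested on simulated data. DESeq2 1.42.0 was an alternative. Named genes were the 10 per direction (5 for the difference in age change) with the largest change among called genes, leaving out Gm, Rik, Rpl, Rps and rule genes. Outside that difference they also needed 50 CPM in the higher group and the same sign on every plate, or both plates of 1 age above both of the other. Genes of the fixed lists could be named whatever their result. The members and lists were chosen with earlier results of these data known. Replicate numbers did not pair the plates (correlation of deviations 0.0066 across 7802 genes). Log2 differences are edgeR estimates. 5 further E18 plates were not used here, and a few genes that the rule names are not reported here.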

Additional observations from a re-analysis of the deposited data

Results flagged for a closer look

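The change from P4 to P7 in members differed from that in the other kept wells for 173 genes by edgeR's interaction test, of which 20 are given here. The makeup of the other kept wells also differed with age, and its part was not tested. The log2 difference in change was 10.53 for Ccnb1, 8.10 for Timp4, 6.77 for Pbxip1, 5.86 for Bmp4 and 5.66 for Mki67, genes at 0 or under 1 CPM in members at P4. It was 2.70 for Ier2, 1.42 for Egr1, 1.01 for Ebf3, 0.90 for Fos, 0.79 for Lmo3, 0.44 for Synpr and 0.42 for Nrgn. It was -2.43 for Sst, -2.11 for Vwc2l, -2.06 for Cntnap5a, -1.89 for Tom1l1, -1.89 for Stk32b, -1.49 for Robo2, -1.42 for Gap43 and -1.06 for Adcyap1. Sst, Ebf3, Fos, Egr1 and Ier2 were called whichever plate was left out, but Egr1 was not called by DESeq2, which gave no adjusted p for Sst and Ier2, and Sst and Ier2 were not called after thinning.

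Outside the P4 and P7 plates, more than 3 kept wells met the rule on E15 plate 2 and on adult plate 2. The shares were 1.32% (4 of 302, 95% exact binomial interval 0.362 to 3.36%) and 7.31% (25 of 342, 4.79 to 10.6%). On E15 plate 2, 0 of the 4 wells had all 3 cholinergic genes, and their median was 21159 counts against 8115 in the other kept wells. These counts are not a test of whether such cells were present.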

How the results depend on the processing

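Against the other kept wells 2322 genes were called, 1422 by DESeq2, 1332 with no plate block, 1076 after thinning and 1573 to 2069 without 1 plate. Against Tac1-high wells the count was 1372, 491 after thinning and 765 to 1642 without 1 plate. From P4 to P7 it was 448, 262 by DESeq2, 895 with no upper limits, 150 after thinning and 425 to 521 without 1 plate. With the replicate number as a block, though the numbers do not pair the plates, it was 656. For the difference in age change it was 173, 23 by DESeq2, 67 with all 3 genes required, 92 with no upper limits, 23 after thinning and 108 to 175 without 1 plate. The share of members was 32.6% at P4 and 27.6% at P7 after thinning with unchanged count limits. It was 37.5% and 23.2% with all 3 genes required and 68.9% and 55.1% with no upper limits. Signs reversed for Htr4 against the other kept wells with no upper limits (0.49), for Cnp from P4 to P7 with all 3 genes required (-0.25) and without the 9 wells (-0.31), and in the difference in age change for Timp4 and Mki67 with all 3 genes required (-0.093 and -1.98) and Bmp4 without the 9 wells (-0.22). Thinning and leaving out a plate leave fewer counts, but the cause of a changed call was not tested for any setting. In the 2 age comparisons, leaving out a plate also left a single plate at its age, so those fits have little measure of spread. Of the values of named genes, 920 of 949 kept direction and call against the other kept wells, 389 of 389 against Tac1-high wells, 579 of 623 from P4 to P7 and 156 of 218 for the difference in age change. A further 11, 14, 1 and 22 values, in the same order, gave no result and are left out of these totals. With 2 plates an age and 4 Tac1-high wells on P4 plate 2, low genes are limited by depth.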
